A study of Rattus norvegicus with 6 samples.

Results

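Fam111a, Ndufa10l1, Alpi and Gpank1 each stood at 2 separate levels across 6 rats, one group of animals high and the rest low or at 0, and in none of the 4 did the levels follow the treatment. The genes were picked from these same values, as rows whose 6 FPKM values (fragments mapped to a transcript, scaled to its length and to the library's size) fall into a high and a low set that cut across the treatment groups. They are 4 of 13104 genes and unmatched transcripts in the table, each measured through 1 RefSeq transcript. Their levels and the gaps between them are therefore given as a description, with no test.

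The animals were male Wistar rats, an outbred stock, and all 6 had lost the pineal gland by surgery, the vehicle animals included. At the start of subjective night 3 received melatonin (1 mg/kg, intraperitoneal), numbered 4 to 6 in the labels, and 3 received vehicle (2.5% ethanol in PBS), numbered 1 to 3. The inner epithelial layer of the colon was taken 4 h later, 1 sample per animal. The labels give no litter, genotype or extraction batch for single animals.

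The 4 genes have unlike roles. Fam111a encodes a trypsin-like serine protease that binds the replication clamp PCNA, helps replication forks past protein obstacles and restricts some viruses. Ndufa10l1 encodes a protein like NDUFA10, an accessory subunit of mitochondrial complex I, the enzyme that passes electrons from NADH to ubiquinone. Alpi encodes intestinal alkaline phosphatase, a brush border enzyme that removes phosphate from bacterial lipopolysaccharide and is best known from the small intestine. Gpank1 encodes a protein with a G patch and ankyrin repeats, and lies in the class III region of the major histocompatibility complex.

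The labelled tissue matched its markers. The 8 markers of absorptive colonocytes were all present, with summed FPKM between 5963 and 7232 over the 6 animals, and the 5 goblet cell markers with a row summed to 5804 to 7234. Smooth muscle markers summed to 8.37 to 14.3 FPKM, T and NK cell markers to 2.86 to 22.6 and macrophage markers to 2.94 to 8.53. Each library held an estimated 3285000 to 3550000 mapped fragments, read off the spacing of low FPKM values. In a bulk sample, fewer cells of a type and less RNA per cell cannot be told apart.

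The promoters of Fam111a and Alpi are shown because these genes are the members that have an entry in the RefSeq promoter table (build GRCr8, 250 bases before to 50 after the gene start, 5′ to 3′ on the gene's strand). Those of Ndufa10 and Akp3 are shown because their rows are set beside Ndufa10l1 and Alpi in what follows. Capitals mark matches on either strand to the GC box, spelled GGGCGG, to the binding motif of factor NF-Y, spelled CCAAT, and to the cAMP response element, spelled TGACGTCA.
Fam111a, chr1:219065389-219065688, plus strand: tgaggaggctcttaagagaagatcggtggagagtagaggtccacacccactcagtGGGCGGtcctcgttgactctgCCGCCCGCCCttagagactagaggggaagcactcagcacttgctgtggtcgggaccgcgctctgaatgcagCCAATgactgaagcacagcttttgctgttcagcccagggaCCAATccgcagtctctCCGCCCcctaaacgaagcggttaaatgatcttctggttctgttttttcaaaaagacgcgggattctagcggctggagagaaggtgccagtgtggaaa
Alpi, chr9:95224731-95225030, minus strand: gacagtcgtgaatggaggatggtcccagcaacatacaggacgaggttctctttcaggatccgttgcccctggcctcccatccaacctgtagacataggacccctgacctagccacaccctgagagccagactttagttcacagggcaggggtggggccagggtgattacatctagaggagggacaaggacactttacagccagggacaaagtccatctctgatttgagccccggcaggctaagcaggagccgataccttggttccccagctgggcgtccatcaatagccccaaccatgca
Akp3, chr9:95252331-95252630, plus strand: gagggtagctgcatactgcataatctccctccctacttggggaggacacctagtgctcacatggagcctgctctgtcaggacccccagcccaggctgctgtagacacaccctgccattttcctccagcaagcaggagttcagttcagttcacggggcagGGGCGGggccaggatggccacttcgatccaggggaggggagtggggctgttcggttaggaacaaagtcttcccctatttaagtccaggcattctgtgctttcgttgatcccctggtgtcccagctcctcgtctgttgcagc
Ndufa10, chr9:100489215-100489514, minus strand: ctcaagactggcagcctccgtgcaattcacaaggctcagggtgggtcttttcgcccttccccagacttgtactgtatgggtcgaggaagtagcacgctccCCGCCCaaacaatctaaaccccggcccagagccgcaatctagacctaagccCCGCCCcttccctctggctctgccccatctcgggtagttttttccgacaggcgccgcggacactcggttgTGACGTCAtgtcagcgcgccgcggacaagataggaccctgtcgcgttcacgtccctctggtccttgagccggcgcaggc

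The Fam111a window held 4 matches to GGGCGG, of which 2 overlapped each other, and 2 to CCAAT. The Ndufa10 window held 2 matches to GGGCGG and 1 to TGACGTCA, and the Akp3 window 1 match to GGGCGG. The Alpi window held none of these. Of all 33469 promoters of the same length in the table, 33.1% held GGGCGG, 37.5% held CCAAT and 1.83% held TGACGTCA. None of the 4 windows held the letters TATAAA, found in 14.2% of all promoters, or the core of the interferon-stimulated response element (3.92%). These matches describe letters and not bound sites. CG pairs numbered 15 in the Fam111a window and 24 in that of Ndufa10, against 6 in each of the Alpi and Akp3 windows and a median of 7 over all promoters.

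Fam111a was high in 4 animals and low in 2. Its FPKM was 73.25 in vehicle animal 1, 2.13 in vehicle animal 2 and 1.88 in vehicle animal 3, and 47.48, 71.44 and 78.97 in melatonin animals 4, 5 and 6. The lowest of the high animals lay 22.3-fold above the highest of the low animals, and the high animals differed among themselves by 1.66-fold at most. The 2 low values were not 0 and rest on about 22 and 21 estimated reads, against 513 to 881 in the high animals. Both low animals had received vehicle, yet vehicle animal 1 lay within the melatonin values. No row was found for the other family genes looked up, Fam111al1, Fam111b and Fam111a-ps1.

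Ndufa10l1 was present in 2 animals and listed at 0 in 4. Its FPKM was 31.06 in vehicle animal 1 and 30.66 in melatonin animal 4, a difference of 1.01-fold, and 0 in vehicle animals 2 and 3 and melatonin animals 5 and 6. The 2 values rest on about 153 and 147 estimated reads. A listed 0 in a table without counts can be a failed estimate, so no fold is given against it.

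Alpi was present in the same 2 animals. It was listed at 7.91 FPKM in vehicle animal 1 and 16.87 in melatonin animal 4, about 61 and 127 estimated reads, and at 0 in the other 4. The 2 animals that had the transcript differed from each other by 2.13-fold, where Ndufa10l1 was nearly equal in them.

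Gpank1 was high in a different pair of animals. Its FPKM was 112.27 in vehicle animal 2 and 165.63 in melatonin animal 5, against 15.69 and 13.80 in vehicle animals 1 and 3 and 17.76 and 14.24 in melatonin animals 4 and 6. The low level of this gene was well above 0, at about 66 to 83 estimated reads. The lowest high animal lay 6.32-fold above the highest low animal, and 1 high animal came from each treatment group.

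**Figure D1:**
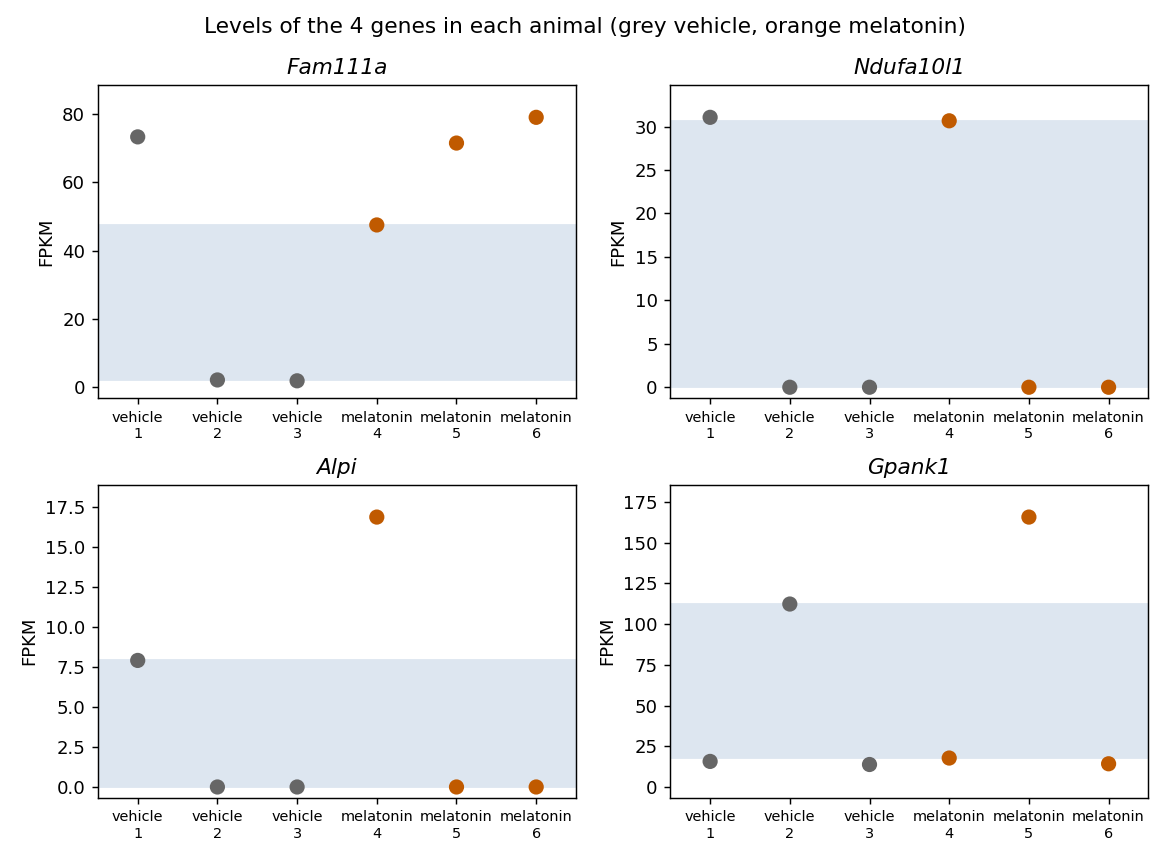
FPKM of Fam111a, Ndufa10l1, Alpi and Gpank1 (vertical axis, linear) in each of the 6 animals (horizontal axis), with vehicle in grey and melatonin in orange. The shaded band is the gap between the highest low animal and the lowest high animal, from 2.13 to 47.48 for Fam111a, 0 to 30.66 for Ndufa10l1, 0 to 7.91 for Alpi and 17.76 to 112.27 for Gpank1.

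The 4 genes thus showed 3 different divisions of the animals. Vehicle animal 1 was high for Fam111a, Ndufa10l1 and Alpi and low for Gpank1. Melatonin animal 4 was placed in the same way for all 4. Vehicle animal 3 was low for all 4, and vehicle animal 2 was low for all but Gpank1. Melatonin animal 5 was high for Fam111a and Gpank1, and melatonin animal 6 for Fam111a alone.

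Few features in the table had such a pattern. A feature was counted as standing at 2 levels where the largest gap between neighbouring values of log2(FPKM + 1) was at least 1, made up at least 50% of the whole range, and left at least 2 animals on either side. Of the 10137 features tested, those averaging 1 FPKM or more over the animals, 66 did so (0.651%), the 4 genes among them as their choice implies. Ndufa10l1 and Alpi reached the mean of 1 FPKM through their 2 high animals alone. Split at the largest gap, the 66 fell into 33 different divisions of the animals. For 1 of the 66, Mir3074 with at most 1 estimated read, that gap lay between the vehicle and the melatonin animals. The groups can also stand apart where the largest gap lies elsewhere, as they did for Scgb1a1 and Tnfsf10. By size of gap, Ndufa10l1 (4.98 on the log2 scale) and Fam111a (3.95) ranked 1 and 2, Alpi (3.16) ranked 5 and Gpank1 (2.59) ranked 17.

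Read support differed widely among the 66. Of the 66, 23 were microRNA precursors with at most 3 estimated reads in any animal, and 31 of the 66 reached 20 estimated reads in 1 animal. Of those 31, 6 had a gap over 2.5 on the log2 scale. That limit was not planned and lies just under the gap of Gpank1 (2.59). The 6 were the 4 genes, which were picked for such gaps, and Ifit1 and Ubd. Ifit1 and Ubd are induced by interferons and were high in melatonin animals 5 and 6. The within-group standard deviation of log2(FPKM + 1) ranked 1 for Ndufa10l1, 8 for Alpi, 12 for Fam111a and 19 for Gpank1 among the 10137 features. High ranks follow from the choice of genes whose levels cut across the treatment groups, and are no support for it.

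**Figure D2:**
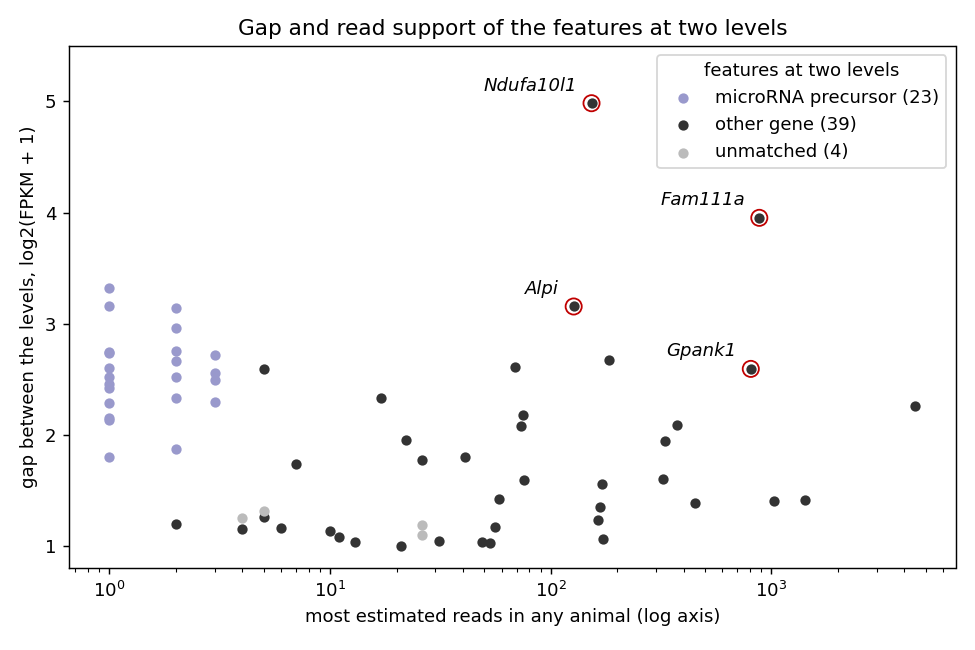
Gap between the high and the low level on the log2(FPKM + 1) scale (vertical axis) against the most estimated reads in any animal (horizontal axis, log scale), for the 66 features at 2 levels. Each point is a feature, the 23 microRNA precursors in lilac lie at 3 reads or fewer, and the 4 circled genes combine large gaps with 127 to 881 reads.

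The treatment contrast sets the melatonin animals against the vehicle animals. Since the 4 genes were chosen with that contrast in view, their values in it are a description. limma on log2(FPKM + 1) called 0 of 10137 features higher (0%) and 0 lower (0%) at a Benjamini-Hochberg adjusted p under 0.05, the 4 genes included. Before adjustment 380 features (3.75%) had a p under 0.05. On estimated reads limma voom called 0 as well, and before adjustment 166 features passed as higher and 182 as lower. The groups did not overlap for 849 features (8.38%), and they overlapped for each of the 4 genes.

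Fam111a stood at 25.8 ± 41.1 FPKM after vehicle and 66.0 ± 16.4 after melatonin (mean ± SD, n = 3), a log2 difference of 2.90 ± 1.10 (SE). The vehicle SD exceeded the vehicle mean, because 1 vehicle animal was high and 2 were low. Ndufa10l1 stood at 10.4 ± 17.9 and 10.2 ± 17.7 FPKM (log2 difference -0.01 ± 1.66), with 1 high animal per group. Alpi stood at 2.64 ± 4.57 and 5.62 ± 9.74 (0.33 ± 1.24), and Gpank1 at 47.3 ± 56.3 and 65.9 ± 86.4 (0.26 ± 1.02). Leaving out each animal in turn gave log2 differences of 2.10 to 4.45 for Fam111a, the highest without vehicle animal 1, as its division of the animals fixes. The sign of the difference depended on the animals kept for the other three, which ran from -1.67 to 1.66 for Ndufa10l1, -1.05 to 1.39 for Alpi and -0.84 to 1.21 for Gpank1, the lowest without melatonin animal 4 for Ndufa10l1 and Alpi and without melatonin animal 5 for Gpank1, and the highest without vehicle animal 1 for the former pair and vehicle animal 2 for Gpank1.

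The log2 ratio of melatonin over vehicle in the authors' deposited table compares group means, unlike the differences of mean log2(FPKM + 1) above. Fam111a has a ratio of 1.36 and a score of 0.838 there, and 24 of the 13647 transcripts have a score at least as high. Gpank1 has a ratio of 0.479 and a score of 0.631 (258 transcripts at least as high). Alpi has a ratio of 1.09 and a score of 0.531 (550 transcripts). Ndufa10l1 has a ratio of -0.019 and a score of 0.090 (12331 transcripts). The tool behind the score, which the file heads as a probability, is not given in the sources used here.

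Ndufa10 mirrored Ndufa10l1. Ndufa10 encodes the complex I subunit itself, and its row stood at 46.05 FPKM in vehicle animal 1 and 44.84 in melatonin animal 4, the 2 animals with Ndufa10l1. In vehicle animals 2 and 3 it stood at 73.11 and 73.76, and in melatonin animals 5 and 6 at 81.96 and 66.64. The 2 sets did not overlap for Ndufa10, with a gap of 0.52 on the log2 scale between 46.05 and 66.64.

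The sum of both rows did not divide the animals in this way. Summed FPKM was 77.1 and 75.5 in the animals with Ndufa10l1 and 73.1, 73.8, 82.0 and 66.6 in the others, so the sums overlapped. Ndufa10l1 made up 40.3% of the sum in vehicle animal 1 and 40.6% in melatonin animal 4. The range over the 6 animals fell from 0.86 on the log2 scale for Ndufa10 alone to 0.29 for the sum. The sources used here do not say how reads that fit both transcripts were divided, and its part in this pattern was not tested, so the level of each row alone is uncertain.

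**Figure D3:**
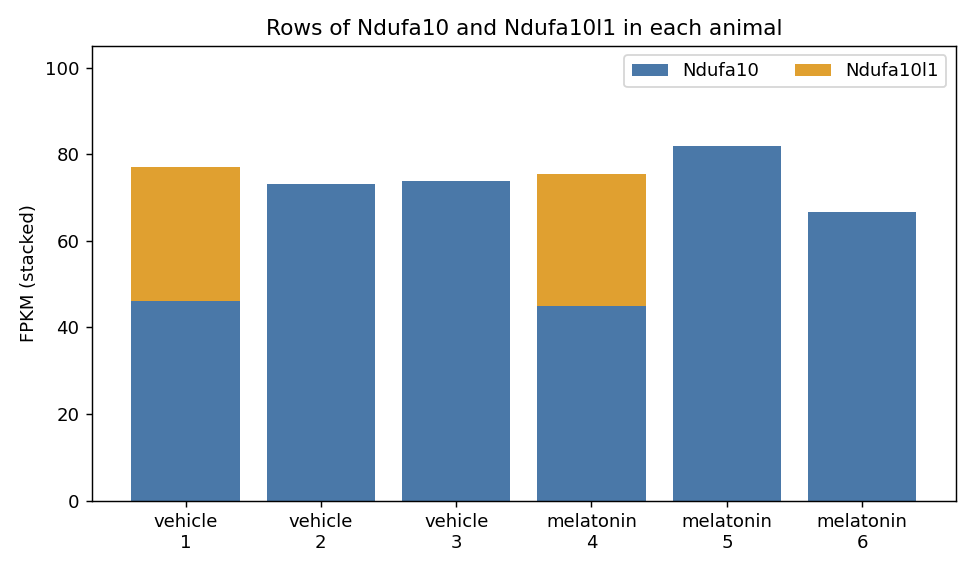
FPKM of Ndufa10 (blue) and Ndufa10l1 (yellow), stacked, in each of the 6 animals. Ndufa10l1 appears in vehicle animal 1 and melatonin animal 4 alone, where Ndufa10 is lowest, and the stacked totals run from 66.6 to 82.0.

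Other complex I subunits did not stand at 2 levels. Of 38 listed subunits other than Ndufa10l1, 33 were tested and 0 were at 2 levels. With 0.651% of all features at 2 levels, 0 among so few does not set the subunits apart. In either direction after melatonin, 0 of the subunits were called. Their median log2 difference between melatonin and vehicle was -0.09, beside a median of -0.02 over all features. Vehicle animal 1 and melatonin animal 4 both lay below the other 4 for 3 subunits, Ndufa10 among them, and above them for 1, where 4.27% and 7.42% of all features did so. After Ndufa10, the subunit most unlike Ndufa10l1 in pattern was Ndufb2, at 69.86 and 74.81 FPKM in those 2 animals and 80.34 to 91.43 in the others (Pearson r = -0.89 over 6 animals).

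The other alkaline phosphatases were near 0 in every animal. Akp3, a second intestinal alkaline phosphatase and the next measured gene to Alpi in the RefSeq order, was listed at 0.17 FPKM in vehicle animal 3, about 1 estimated read, and at 0 in the other 5. Alpl, the phosphatase of bone, liver and kidney, was listed at 0.38 in vehicle animal 2, about 3 estimated reads, and at 0 elsewhere. No row was found for Alpp, Alpg or Alppl2 here.

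Genes of the enterocyte were set beside Alpi. Of 13 tested genes of absorption and the brush border, 0 were at 2 levels. Beside 0.651% of all features, 0 among so few does not set them apart. The 2 animals with Alpi lay below the others for 2 of the 13 and above for 0, where 4.27% and 7.42% of all features did so. The microvillus protein Vil1 stood at 361.34 FPKM in vehicle animal 1 and 349.74 in melatonin animal 4, and at 361.47 to 417.91 in the other 4. Of 7 tested genes of small intestinal enterocytes, 0 had both animals with Alpi above or below the rest. Fabp2, the intestinal fatty acid binding protein, stood at 20.11 and 16.82 FPKM in the animals with Alpi and at 43.87, 32.10, 18.97 and 47.03 in vehicle animals 2 and 3 and melatonin animals 5 and 6. For both lists limma called 0 genes in either direction.

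The row of Apoa1, an apolipoprotein made by liver and small intestine, stood apart in the 2 animals low for Fam111a. It was listed at 298.36 and 304.66 FPKM in vehicle animals 2 and 3, against 34.07 in vehicle animal 1 and 115.18, 69.16 and 88.96 in melatonin animals 4 to 6. The 5 small intestinal markers with a row, Apoa1 among them, summed to 376 and 381 FPKM in those 2 vehicle animals and to 92.8 to 183 in the others. Apoa1 carried that difference: the other 4 markers summed to 77.3 and 76.2 in these 2 animals and to 58.3 to 94.4 in the rest, highest in melatonin animal 6. Lct, the lactase gene, was listed at 0 to 0.09 in every animal. Sis, Slc2a2 and Gata4 of that list had no row. The part of Apoa1 in the Fam111a pattern was not tested.

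Scgb1a1 was the gene most like Fam111a. It encodes a secretoglobin, a small secreted protein known from airway club cells, and by Pearson r over the 6 animals on log2(FPKM + 1) it came first of the features with a range of at least 1 (r = 0.976). Its FPKM was 259.82 and 376.42 in vehicle animals 2 and 3, and 1811.44 in vehicle animal 1 and 2241.91, 2956.15 and 2429.92 in melatonin animals 4, 5 and 6. The same 2 animals were low for both genes. Unlike for Fam111a, all melatonin animals lay above all vehicle animals for Scgb1a1, and the groups did not overlap for 8.38% of all features. Scgb1a1 and Fam111a lie on the same chromosome in the RefSeq annotation, with 44 measured genes between them.

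**Figure D4:**
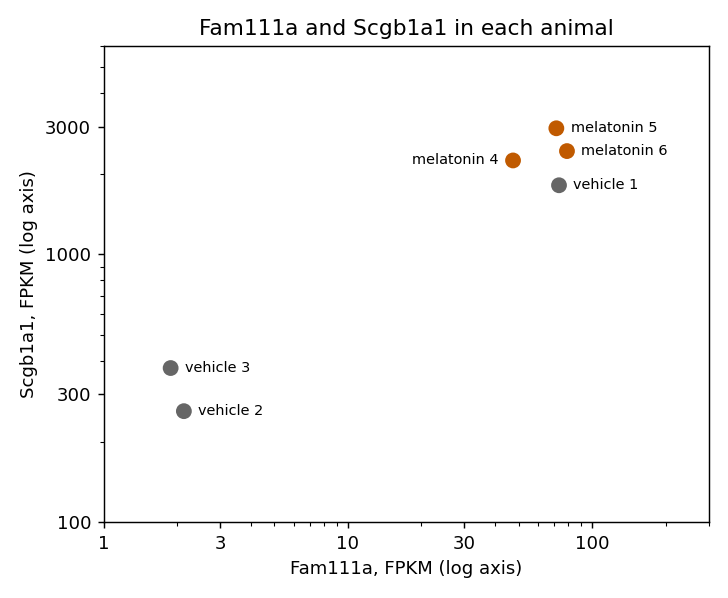
FPKM of Scgb1a1 (vertical axis, log scale) against Fam111a (horizontal axis, log scale) in each of the 6 animals, with vehicle in grey and melatonin in orange. Vehicle animals 2 and 3 lie at the low end of both axes. Vehicle animal 1 lies near the 3 melatonin animals, among them for Fam111a and below all of them for Scgb1a1.

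Smaller differences between the same animals were seen in the next 4 genes by likeness to Fam111a. Cbx5, the heterochromatin protein HP1 alpha, stood at 4.23 and 4.16 FPKM in vehicle animals 2 and 3 and at 8.23 to 9.93 in the other 4 (r = 0.966). Tgfbr2, a receptor of transforming growth factor beta, stood at 3.13 and 4.01 against 7.85 to 12.39 (r = 0.956). Gtdc1 stood at no more than 2.43 against 5.31 to 6.59, and Asb2 at 0.49 and 0.23 against 1.24 to 1.92. Such likeness over 6 animals is a description, since all genes share these libraries, and 729 of the 10137 features (7.19%) had the 4 animals high for Fam111a all above the other 2.

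Besides Scgb1a1, the features at 2 levels with the same division as Fam111a were Cxcl6, a neutrophil chemokine, and Tnfsf10, the death ligand TRAIL, making 4 with Fam111a itself. Tnfsf10 stood at 3.99 and 4.04 FPKM in vehicle animals 2 and 3, 9.31 in vehicle animal 1 and 15.61 to 16.56 after melatonin. Its treatment groups therefore did not overlap. Cxcl6 was listed at 0 in vehicle animals 2 and 3 and at 2.34 to 5.48 in the others, on at most 7 estimated reads.

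Genes of DNA replication and repair, set beside Fam111a, were not at 2 levels. Of 11 listed genes, among them the replication clamp and its loader, 10 were tested and 0 were at 2 levels. Beside 0.651% of all features, 0 among so few does not set them apart. In either direction 0 of these genes were called. Their median log2 difference between melatonin and vehicle was 0.18. In 4 of the 10 the animals high for Fam111a lay above the other 2, and in 0 below, where 7.19% and 8.2% of all features did so. Fen1, the flap endonuclease, stood at 4.67 and 3.93 FPKM in vehicle animals 2 and 3 and at 5.71 to 9.55 in the others. Parp1, which senses DNA breaks, stood at 15.86 and 13.98 against 16.06 to 19.26.

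Interferon-stimulated genes, set beside Fam111a for its antiviral role, were highest in melatonin animals 5 and 6 by their median. Of 14 tested, 4 were at 2 levels, against 0.651% of all features, and 0 were called (median log2 difference 0.77). In 3 of the 14 the 4 animals high for Fam111a lay above the rest, against 7.19% of all features. The median log2 difference from the mean of the 6 animals was 0.98 in melatonin animal 5 and 0.92 in animal 6, and between -0.49 and -0.36 in the other 4, where Fam111a was high in 2 and low in 2. Ifit1 was listed at 1.05, 0.14 and 0.13 FPKM after vehicle and at 0.54, 12.10 and 24.40 after melatonin.

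Of the 5 genes most like Ndufa10l1, Alpi came second (r = 0.986). Ranks 1 and 3 went to the microRNA precursors Mir3593 and Mir343, listed in the same 2 animals on at most 1 and 3 estimated reads and at 0 elsewhere. Slc2a10, a glucose transporter, stood at 4.27 and 5.34 FPKM in vehicle animal 1 and melatonin animal 4 and at 1.05 to 2.12 in the other 4 (r = 0.927), and it was also the fifth for Alpi. The fifth for Ndufa10l1 was the precursor Mir6318, at 57.42 and 47.09 against 19.35 to 29.23 FPKM on at most 15 estimated reads. Pla2g15, a lysosomal phospholipase, was the fourth for Alpi, at 3.29 and 4.89 against 1.59 to 2.43 FPKM (r = 0.937).

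Ndufa10l1 and Alpi share their division of the animals but lie on different chromosomes. Alpi and Ndufa10, the counterpart of Ndufa10l1, lie on one chromosome with 38 measured genes between them. How often a pair of animals stood together at an extreme was counted, which does not measure how alike the animals are otherwise. Vehicle animal 1 and melatonin animal 4 held the 2 highest or the 2 lowest values in 11.7% of the tested features. That was rank 9 of the 15 pairs of animals, which ran from 8.9% to 25.3%. The pair high for Gpank1 did so in 9.7% (rank 11), and the pair low for Fam111a in 15.4% (rank 5).

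The genes most like Gpank1 differed between the animals by less. RT1-S2, a class I gene of the rat major histocompatibility complex, stood at 43.56 and 57.54 FPKM in vehicle animal 2 and melatonin animal 5 and at 25.25 to 31.09 in the other 4 (r = 0.949). It lies on the same chromosome as Gpank1, with 55 measured genes between them, and because RT1 class I genes resemble each other closely, its level is uncertain. Ybx2, a germ cell RNA-binding protein, stood at 10.43 and 12.09 against 5.14 to 7.07, Tubal3 at 2.43 and 2.88 against 0.68 to 1.60, and Pcdhgb7 at 2.65 and 3.37 against 0.95 to 1.84. The precursor Mir1224, first by likeness (r = 0.988), was listed in the same 2 animals on 1 estimated read each.

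Other tested genes of the class III region were not at 2 levels. Of 29 listed neighbours, 18 were tested and 0 were at 2 levels. Beside 0.651% of all features, 0 among so few does not set them apart. Of the 18, 0 were called, with a median log2 difference of -0.02. Their median range over the animals was 0.51 on the log2 scale, beside 0.56 over all features. Both animals high for Gpank1 lay above the rest for 3 of the 18 and below for 0, where 5.99% and 3.74% of all features did so. Ly6g6c stood at 1.72 to 6.77 FPKM (range 1.51). Bag6, a chaperone for membrane proteins, stood at 84.32 to 92.90 FPKM in the 6 animals, a range of 0.14 on the log2 scale against 3.49 for Gpank1. Csnk2b, the next measured gene and the regulatory subunit of casein kinase 2, stood at 111.53 to 135.44, lowest in vehicle animal 2 and highest in melatonin animal 5, the 2 animals high for Gpank1. Of 16 tested G patch proteins, which share a motif of RNA-processing factors with Gpank1, 0 were at 2 levels. Beside 0.651% of all features, that again does not set them apart. Of these 16, 0 were called. The animals high for Gpank1 lay above the rest for 2 and below for 0, again beside 5.99% and 3.74% of all features. Cherp, the one most like Gpank1, stood at 30.58 to 36.64.

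None of the tested genes on either side of the 4 stood at 2 levels, though some were ordered by the same animals. Since 0.651% of all features stood at 2 levels, 0 among so few genes does not set them apart. Among the 5 nearest measured genes on each side, 8 reached the filter around Fam111a, 6 around Ndufa10l1, 5 around Alpi and 6 around Gpank1, and 0 of them were at 2 levels. The median log2 range over the animals was 0.70, 1.10, 0.46 and 0.29 in these sets, beside 0.56 over all features tested and at least 3.49 for each of the 4 genes themselves. Around Fam111a the 4 animals high for it lay above the other 2 for 1 of the 8 and below for 2 (Patl1 and Tle4), where 7.19% and 8.2% of all features did so. Around Ndufa10l1 the 2 animals with the transcript lay above the rest for Scin, an actin-severing protein, at 52.26 and 69.85 FPKM against 23.25 to 51.76. Around Alpi they did so for Dis3l2, an exoribonuclease, at 8.95 and 9.64 against 7.04 to 8.83. Around Gpank1 the 2 animals high for it lay above the rest for 0 genes. Over all features, 7.42% had the pair of Ndufa10l1 and Alpi above the rest, and 5.99% the pair of Gpank1. Cntf, 2 places from Fam111a and a neurotrophic cytokine, stood at 0.86 and 1.59 FPKM in vehicle animals 2 and 3 and at 2.15 to 2.62 in the others. Dtx4, next to Fam111a on the other side, stood at 6.90 to 13.55 with both sets of animals overlapping.

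**Figure D5:**
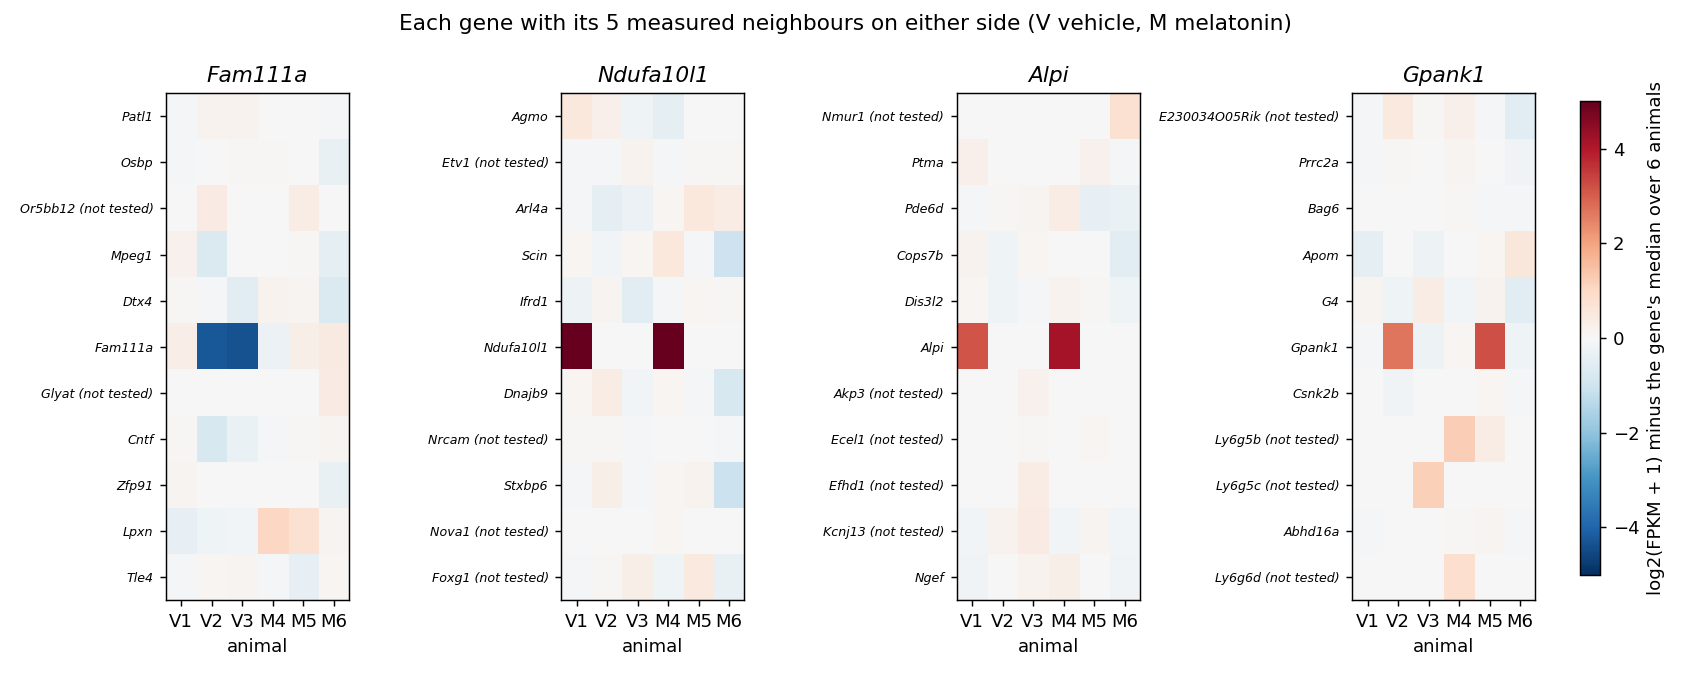
Each of the 4 genes (middle row of its panel) with its 5 measured neighbours on either side in the RefSeq order, as log2(FPKM + 1) minus the gene's median over the 6 animals (colour). Columns are vehicle animals 1 to 3 and melatonin animals 4 to 6, and "not tested" marks a mean FPKM under 1. Strong colour is seen in the middle rows, while 0 of the 25 tested neighbours were at 2 levels, beside 0.651% of all features tested.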

How the data were processed

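Polyadenylated RNA of 6 samples was sequenced, per the labels' protocols, with no strand marking described, so overlapping and antisense genes are not told apart. The deposited table gives FPKM per RefSeq transcript and animal, made by the authors, with BWA 0.7.10-r789, Bowtie2, RSEM and build rn6 named in the submitters' processing notes without roles. It also holds the authors' log2 ratio of group means and a score per transcript, per the file headers. Accessions were matched to RefSeq symbols (GRCr8, for names, gene order and promoters): 12883 of 13647 matched, and transcripts of 1 gene were summed, giving 12340 genes and 764 unmatched transcripts. The 10137 features averaging 1 FPKM or more were fitted on log2(FPKM + 1) in R 4.3.3 by limma 3.58.1 with a mean trend. Its two-sided p-values were adjusted over all of them by the Benjamini-Hochberg method. Fold changes on this scale understate those of low genes. Depth was estimated from the steps of FPKM in transcripts of at most 300 bases. Within a preset range, the depth and the bases taken off the length (36) were those that put the most values near a whole read. With them, 91.7% to 96.2% of the 20 to 26 values per library lay within 0.1 of a whole read. That share was maximized by the choice and is no check of it. Reads given here rest on these estimated depths. The fit was tried on simulated data with planted changes. The search for features at 2 levels was tried on planted shifts well above its gap limit with little noise. That checks the code, and not how the search performs on noisy or low values.

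The members and lists were chosen with earlier results of these data known. Named were the 4 genes, their family rows, neighbours at 2 levels, the 5 features most like each member (range of at least 1 on the log2 scale, LOC and RGD symbols and unmatched transcripts passed over) and up to 4 genes per related list. Lct, Cxcl6, Tnfsf10, Ifit1, Ubd, Cntf, Dtx4, Patl1, Tle4, Scin, Dis3l2, Bag6 and Csnk2b were named after their values were seen. The markers of enteroendocrine cells summed to 145 to 194 FPKM, of B and plasma cells to 0 to 4.87 and of red blood cells to 32.9 to 70.8. Alternatives were 2 scalings, 2 filters, a pseudocount of 0.1, unsummed transcripts, voom, stricter limits on the gap, and leaving out each animal.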

Additional observations from a re-analysis of the deposited data

How the results depend on the processing

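The smallest two-sided p that exact permutation of 3 against 3 animals allows is 0.1, and values of 1 FPKM rest on few reads. No paired analysis was possible because the groups share no replicate number (1 to 3 and 4 to 6). Leaving out 1 animal gave 0 to 4 features higher after melatonin (limma). The 3 without vehicle animal 1 were Fam111a, Scgb1a1 and Tnfsf10, a call fixed by how these genes divide the animals and no support for it. The 4 without melatonin animal 4 included none of the 4 genes, and the lower count was 0 throughout. Without a filter, limma called 1 feature lower, Mir3074, which had at most 1 estimated read in any animal. The other scalings, the stricter filter, a pseudocount of 0.1, unsummed transcripts and voom called 0.

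The count of 66 features at 2 levels became 126 with a pseudocount of 0.1 and 158 with unsummed transcripts. It became 33 with a gap of at least 2, 33 with a gap of at least 70% of the range, and 31 with at least 20 estimated reads, a limit added after seeing the data. It was 56 to 84 without 1 animal. The 4 genes met the rule under both scalings, the smaller pseudocount and both stricter limits. With at least 1 FPKM asked of at least 3 animals the count was 44, and Ndufa10l1 and Alpi, at 0 in 4 animals, left the set. With a pseudocount of 0.1 the gap became 4.42 for Fam111a, 8.26 for Ndufa10l1 and 6.32 for Alpi, the last 2 set by that pseudocount because the low animals are at 0. With median-of-ratios and TMM scaling it was 4.93 and 4.93 for Ndufa10l1. Without 1 animal the gap was 3.95 to 4.53 for Fam111a, 4.98 to 5.0 for Ndufa10l1, 3.16 to 4.16 for Alpi and 2.59 to 3.15 for Gpank1, which the choice of genes fixes in direction. With Ndufa10 and Ndufa10l1 summed the gap was -0.12, so that the 2 sets of animals overlapped.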

Other observations

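Other genes with at least 20 estimated reads also stood at 2 levels, and are named here after their values were seen. The metallothionein genes Mt1 and Mt2A, which encode small zinc-binding proteins, were high in vehicle animals 2 and 3 and melatonin animal 5. Mt2A was listed at 208.11, 205.87 and 225.05 FPKM in those animals and at 52.10, 48.55 and 52.69 in vehicle animal 1 and melatonin animals 4 and 6. Mt1 was listed at 727.87, 808.22 and 821.44 against 273.90, 263.72 and 251.33. Abo2, a glycosyltransferase of the ABO family, had the same division, at 14.49, 10.76 and 16.14 against 2.81, 3.10 and 4.21.

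A division that left melatonin animals 5 and 6 low was seen for Pdia5, a disulfide isomerase of the endoplasmic reticulum. It was listed at 5.31 and 5.49 FPKM in these animals and at 26.67 to 65.58 in the other 4. Cyp4b1, a cytochrome P450, was listed at 42.83 and 52.13 against 140.19 to 229.56.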
